A study of Mus musculus with 6 samples.

Results

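The RNAs described here are 9 long noncoding RNAs, chosen by gene symbol from the 23284 genes in the files. Host genes of small nucleolar RNAs (snoRNAs) make up 7 of them, namely Gas5, Snhg1, Snhg3, Snhg5, Snhg6, Snhg8 and Snhg12, and the other two, Malat1 and Neat1, make long RNAs that stay in the nucleus. All 9 were held by the files and all 9 had a mean of at least 1 FPKM, so none was lost to the filter on low values. FPKM is a read count corrected for the length of the gene and the size of the library.

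RNA was taken from C1498-EGFP cells, a clone grown from a single cell of a mouse acute myeloid leukemia (AML) line that carries a fluorescent protein. The cells had been injected into a vein of C57BL/6 J mice, female unless stated otherwise in the study, and GFP+ CD49b+ cells were sorted from femur, tibia and pelvis marrow on day 21. One group of 3 mice had been treated with cytarabine (cytosine arabinoside), a drug that blocks DNA synthesis. The other 3 mice are the controls, called PBS-treated in the sample descriptions and untreated in the study design. All 6 mice carried the same leukemia clone, and each mouse gave 1 library. The doses and injection days in the methods are those of the imaging and survival experiments.

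A snoRNA host gene is transcribed as a long RNA whose introns hold snoRNAs. After splicing, the snoRNAs are trimmed out of the introns and guide the chemical modification or processing of ribosomal and other RNAs, while the spliced exons are exported. For many hosts the exons code for no conserved protein, and the spliced RNA is removed by nonsense-mediated decay when ribosomes meet its early stop codons. Several hosts, Gas5 among them, start with a pyrimidine tract as the mRNAs of ribosomal proteins do, and Gas5 was named for its accumulation in growth-arrested cells. Malat1 is bound to nuclear speckles, where splicing factors are stored. Neat1 is the scaffold of paraspeckles, nuclear bodies built with RNA-binding proteins such as NONO and SFPQ.

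Positions are those of GENCODE M21 on GRCm38, the same genome as the mm10 build to which the authors mapped the reads. The gene models the authors used are not given in the sources used here. Gas5 lies on chromosome 1 from 161034422 to 161038539 and Snhg6 on the same chromosome from 9941959 to 9944118. Snhg1 is on chromosome 19 from 8723475 to 8726443, and so are Malat1, from 5795690 to 5802672, and Neat1, from 5824708 to 5845478. Snhg12 (chromosome 4, 132308623 to 132311024) and Snhg3 (chromosome 4, 132348014 to 132353686) are neighbours on opposite strands. Snhg8 is on chromosome 3 from 123507552 to 123508404, and Snhg5 on chromosome 9 from 88521050 to 88522929.

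The annotation places 29 snoRNA gene models inside these hosts on the host's own strand. Gas5 holds 10 of them, Snhg1 holds 8, Snhg12 holds 5, Snhg3 and Snhg5 hold 2 each, and Snhg6 and Snhg8 hold 1 each. Malat1 and Neat1 hold none. Most of these models also touch an exon of some transcript of the host, since the annotation lists host transcripts that keep an intron. The snoRNAs of both hosts whose groups were later found not to overlap, Snhg3 and Snhg8, are printed below from the GENCODE transcript sequences, with 1 snoRNA of Gas5 beside them. Capitals mark the boxes that a search of the letters found. In an H/ACA snoRNA this is the ACA near the 3′ end, and in a C/D snoRNA it is TGATGA near the 5′ end and CTGA near the 3′ end.
Snora73a in Snhg3 (chr4:132352775-132352979, minus strand): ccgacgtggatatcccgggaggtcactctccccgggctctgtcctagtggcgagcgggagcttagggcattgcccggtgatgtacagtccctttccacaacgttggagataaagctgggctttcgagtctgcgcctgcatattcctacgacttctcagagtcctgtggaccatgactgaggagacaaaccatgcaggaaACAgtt
Snora73b in Snhg3 (chr4:132352322-132352526, minus strand): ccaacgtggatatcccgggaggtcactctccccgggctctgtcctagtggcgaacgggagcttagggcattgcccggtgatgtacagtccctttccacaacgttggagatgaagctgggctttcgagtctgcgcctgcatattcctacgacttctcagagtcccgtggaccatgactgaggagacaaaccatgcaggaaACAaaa
Snora24 in Snhg8 (chr3:123507937-123508066, minus strand): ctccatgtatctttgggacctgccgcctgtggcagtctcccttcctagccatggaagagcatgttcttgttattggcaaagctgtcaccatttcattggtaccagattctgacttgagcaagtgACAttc
Snord47 in Gas5 (chr1:161038082-161038158, plus strand): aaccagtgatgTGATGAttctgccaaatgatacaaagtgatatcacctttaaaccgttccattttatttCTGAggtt
In the snoRNAs of Snhg3 and Snhg8 the ACA lies 3 bases from the 3′ end. Snora73a and Snora73b, which are copies of the U17 snoRNA used in cutting the ribosomal RNA precursor, differ at 7 of 205 bases. Of the 9 snoRNA names in Gas5, 7 had both boxes of the C/D kind under this search, as did 5 of 8 in Snhg1, 2 of 2 in Snhg5 and 1 of 1 in Snhg6. In Snhg12 the search found 2 of the H/ACA kind and 1 of the C/D kind among 4 names.

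The first bases of the hosts are shown for the 5 that had a window in the RefSeq promoter table of GRCm38.p6 and either a C/T run at the annotated start or groups that did not overlap. Each line gives 20 bases before and 20 bases from the annotated first base on, and capitals mark the longest unbroken run of C and T.
Snhg3 (chr4:132353667-132353706, minus strand): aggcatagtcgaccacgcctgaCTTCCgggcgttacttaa
Snhg8 (chr3:123508317-123508356, minus strand): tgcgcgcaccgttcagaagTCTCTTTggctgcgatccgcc
Snhg12 (chr4:132308658-132308697, plus strand): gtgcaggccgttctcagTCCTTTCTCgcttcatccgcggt
Snhg1 (chr19:8723467-8723506, plus strand): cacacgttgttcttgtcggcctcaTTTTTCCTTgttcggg
Gas5, the second of its 2 starts (chr1:161035146-161035185, plus strand): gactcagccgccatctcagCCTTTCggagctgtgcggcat
The annotated first base lay inside a C/T run of 7 bases in Snhg8, of 9 bases in Snhg12, of 6 bases at the second start of Gas5 and of 4 bases in Snhg1. Runs at least as long at the annotated start were found in 5.3%, 3.0%, 7.2% and 14.0% of all 32851 windows, in the same order. The other start of Gas5 had no C or T at its first base, and its longest run was 3 bases, a length reached in 93.7% of windows. In Snhg3 the annotated first base is neither C nor T, and the longest run was 5 bases, a length reached in 57.5% of all windows. Snhg3 and Snhg8 thus differed in this feature, which is a description of letters and not of control.

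Depth was estimated from the spacing of low FPKM values in single-transcript genes. It lay between 11.46 M and 18.8 M reads (M for mega) per library, the highest in cytarabine 2. Snhg8 and Snhg3 had the fewest reads by this estimate. Over the longest annotated transcript their FPKM corresponded to between 104 and 318 reads a library for Snhg8 and between 202 and 682 for Snhg3. Among defining markers, the leukocyte antigen Ptprc was at 284 to 386 FPKM in the 6 libraries, while Itga2, which encodes the CD49b used in the sort, was lower in every treated mouse. Itga2 had 8.11, 7.79 and 7.88 FPKM after cytarabine and 10.6, 13.3 and 12.8 FPKM in the controls (log2 fold change -0.57, unadjusted p = 0.0015 from limma). Of 7 leukemia and myeloid lineage markers tested, 3 were called lower and 0 higher, and the sum of the 8 in the files was 306 to 456 FPKM against 330 to 423 FPKM. Ptprc made up most of that sum, so it says little about the other markers. Kit, Cd34, Cebpa, Itgam and Csf3r did not exceed 7.72 FPKM in any library. Transcripts of the colon epithelium, smooth muscle and heart were also found, though the sort was for GFP+ CD49b+ leukemia cells. The summed FPKM of 9 colon markers ranged from 303 to 4166 with cytarabine and from 20.2 to 1812 in the controls. Cytarabine 2, cytarabine 3 and control 1 held much of it, and cytarabine 1, control 2 and control 3 held little. For 6 smooth muscle markers the sums were 122 to 1165 FPKM against 24.3 to 953 FPKM in the controls, and for 7 heart markers, of which Nppb was at 0 throughout, 7.21 to 659 FPKM against 51.1 to 2422 FPKM. The division by colon transcript crosses the groups, so within-division values are given beside the results. The summed FPKM of 8 neutrophil markers ranged from 189 to 1433 with cytarabine and from 1438 to 2043 in the controls, without overlap, and 7 of the 8 were called lower at an unadjusted p under 0.05 from limma. Of 10 T and NK cell markers 6 were under 1 FPKM in every library and 3 of the 4 tested were called higher, at levels from 1.03 to 9.99 FPKM. The other one tested, Cd3e, was not called and went the other way (log2 fold change -0.29). It measured 177, 131 and 130 FPKM after cytarabine and 146, 189 and 199 FPKM in the controls. Cd3e made up most of the sum of all 10, which overlapped, at 145 to 199 FPKM against 153 to 207 FPKM in the controls. Whether Cd3e came from the sorted leukemia cells or from other cells was not tested. The sum of 5 macrophage markers was 12.6 to 56.5 FPKM against 12.6 to 148 FPKM, and that of 4 erythroid markers 13.6 to 105 FPKM against 17.5 to 27.5 FPKM. Cytarabine 1 stood apart in the hemoglobin gene Hba-a1, at 95.3 FPKM against 12.6 to 23.8 FPKM in the other libraries, and in the granule enzyme gene Mpo, at 71.1 FPKM against 2.33 to 12.3 FPKM. In bulk RNA, fewer cells of a type and less RNA per cell cannot be told apart.

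The 9 RNAs were compared between cytarabine and control with limma on log2(FPKM + 1), fitted over the 11703 genes that averaged 1 FPKM or more. None of the 9 had an adjusted p under 0.05, a call that no gene reached (0% of genes). With an unadjusted p under 0.05, 2 of the 9 were called, Snhg3 and Snhg8, both higher with cytarabine. Over all genes tested, 17.4% were called at that level, 7.6% higher and 9.81% lower. The groups did not overlap for the same 2 of 9 RNAs, both higher, against 23.8% of all genes in either direction with 10.9% higher and 12.9% lower. The share of the 9 RNAs called was thus near the background of all genes, and the size and stability of single RNAs are what is described below.

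**Figure D1:**
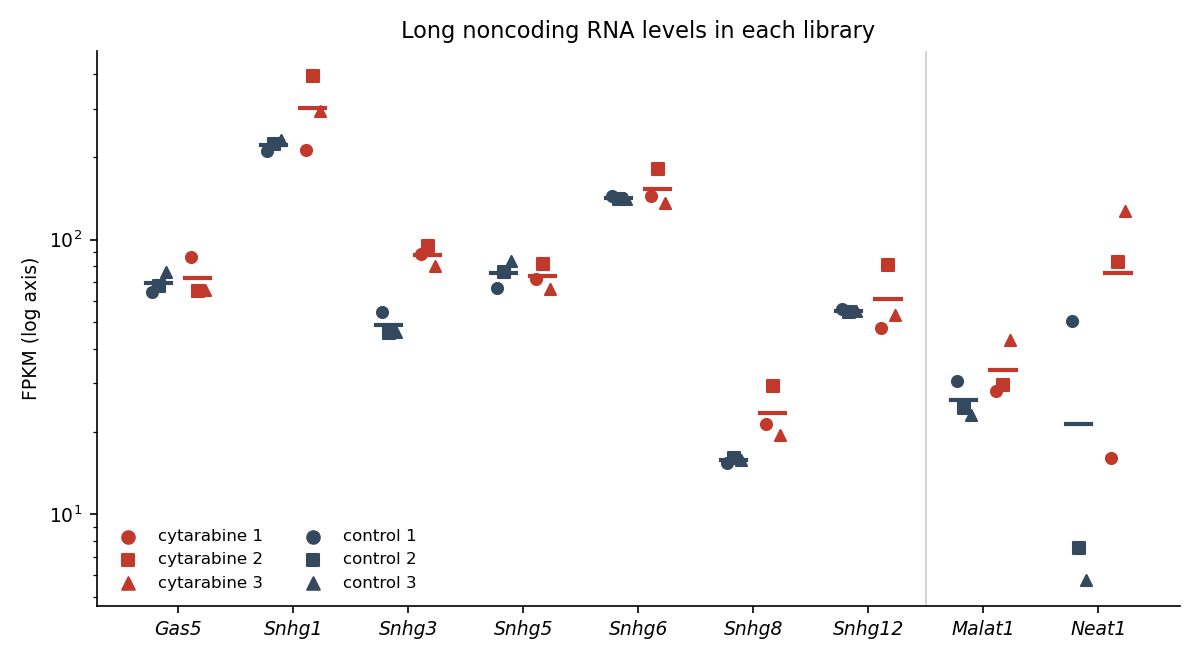
FPKM on a log axis for the 9 long noncoding RNAs in each library, with controls in dark blue, cytarabine in red and horizontal lines at the group means. Only Snhg3 and Snhg8 have every cytarabine library above every control library, and Neat1 spans from 5.74 to 127 FPKM.

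In the controls, Snhg1 was the most abundant at 221 ± 10.5 FPKM (SD, n = 3), followed by Snhg6 at 142 ± 2.50 FPKM (SD, n = 3). Snhg5 stood at 75.6 ± 8.31 FPKM (SD, n = 3) and Gas5 at 69.5 ± 6.15 FPKM (SD, n = 3), and the libraries of these neighbours overlapped. Snhg12 at 55.1 ± 0.59 FPKM (SD, n = 3) overlapped with Snhg3 at 48.8 ± 5.09 FPKM (SD, n = 3), but not with Gas5. Malat1 at 26.0 ± 4.12 FPKM (SD, n = 3) lay above Snhg8 at 15.7 ± 0.32 FPKM (SD, n = 3) without overlap, while Neat1 overlapped with Malat1. These levels are per length and can be set side by side, within the limits of models with between 3 transcripts (Snhg8) and 25 transcripts (Gas5). The libraries were made with a kit for mRNA, which picks poly(A) tails. Malat1 and the long form of Neat1 end without a usual tail, and how much of them the kit took up was not tested.

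Snhg3 showed the clearest difference of the 9. Its level in cytarabine 1, 2 and 3 measured 88.4, 94.9 and 80.4 FPKM. Its level in control 1, 2 and 3 measured 54.7, 45.7 and 46.1 FPKM. All 3 treated mice lay above all 3 controls. The log2 fold change was 0.84 (standard error 0.10, unadjusted p = 1.84e-04, adjusted p = 0.131 from limma), or 1.79-fold with a 95% interval from 1.51-fold to 2.12-fold. By unadjusted p it ranked at place 10 of the 11703 genes. From control to cytarabine it moved from below Gas5 to a mean of 87.9 ± 7.27 FPKM (SD, n = 3), above the mean of 72.4 ± 12.3 FPKM (SD, n = 3) of Gas5, though single libraries of the pair then overlapped.
Among the 3 libraries low in colon transcript the difference in Snhg3 was 0.93 on the log2 scale, and among the 3 libraries high in it 0.67, each with 1 mouse standing alone for its group. When the fit also held the colon and heart marker scores it was 0.50 (unadjusted p = 0.0396 from limma), which is the lowest value of any alternative run and over 1.5 times smaller than the value without them.
Snhg3 overlaps the protein-coding gene Rcc1 on the same strand, whose product charges the small GTPase RAN on chromatin. Rcc1 measured 71.6, 66.4 and 61.1 FPKM in the treated mice against 72.4, 72.1 and 74.9 FPKM in the control mice, with every treated mouse just below the controls (log2 fold change -0.14, unadjusted p = 0.103 from limma). The ratio of Snhg3 to Rcc1 was 1.23, 1.43 and 1.32 with cytarabine and 0.755, 0.633 and 0.615 in the controls. How Cufflinks divided reads between these genes is not known, and its part in the difference was not tested.

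Snhg8, the least abundant of the 9 by its mean over all libraries, measured 21.4, 29.3 and 19.4 FPKM in cytarabine 1, 2 and 3. Control 1, 2 and 3 measured 15.4, 16.0 and 15.7 FPKM. The controls lay close together and all cytarabine libraries above them, with cytarabine 2 the highest. The log2 fold change was 0.52 (standard error 0.15, unadjusted p = 0.0149, adjusted p = 0.200 from limma), or 1.43-fold with a 95% interval from 1.11-fold to 1.86-fold. The differences within the little and much divisions of colon transcript were 0.41 and 0.60. With the colon and heart scores as covariates the value was 0.036 (unadjusted p = 0.906 from limma), so the call was lost in that fit. Itga2 and 6 of 8 neutrophil markers also separated the groups, and their part in the differences of Snhg3 and Snhg8 was not tested. By the mean log2(FPKM + 1) of the neutrophil markers, cytarabine 1, 2 and 3 were at 5.76, 3.60 and 3.55. Control 1, 2 and 3 were at 6.23, 6.82 and 6.81, so cytarabine 1 lay nearest to them.

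**Figure D2:**
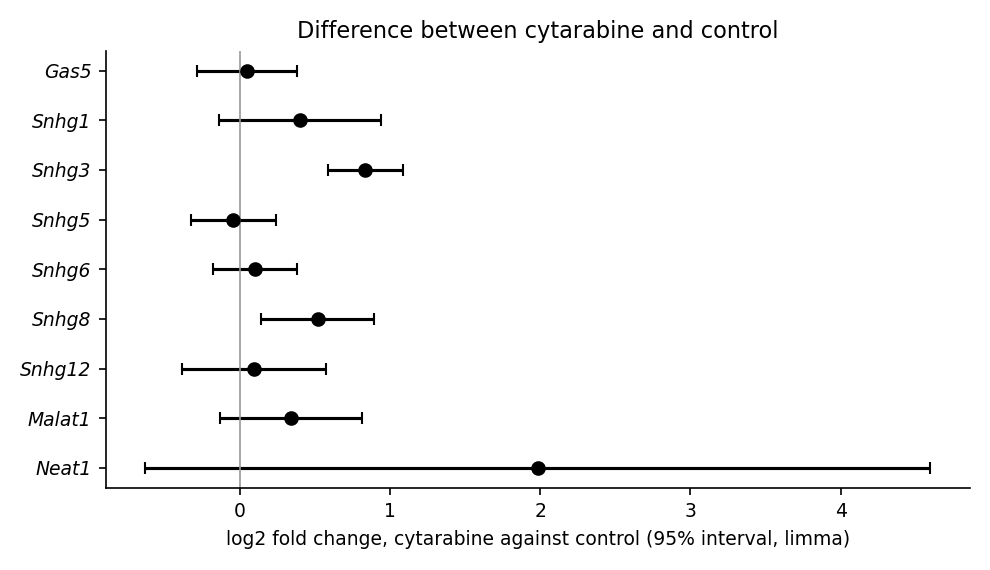
Log2 fold change of each RNA, cytarabine against control, with 95% intervals from limma (n = 3 mice a group). The intervals of Snhg3 and Snhg8 lie above 0, and the interval of Neat1 runs from -0.63 to 4.60.

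The other hosts gave no call. Gas5 measured 86.7, 65.2 and 65.5 FPKM in the treated mice against 64.5, 67.6 and 76.3 FPKM in the control mice. Cytarabine 1, the library high in Hba-a1 and Mpo, was the highest, and cytarabine 2 and 3 lay among the controls. Without it the log2 fold change of Gas5 was -0.084, and the part of the cells marked by these genes was not tested. The log2 fold change was 0.05 (standard error 0.13, unadjusted p = 0.722 from limma), with a 95% interval from 0.82-fold to 1.30-fold. That interval belongs to the fit without tissue scores. With the colon and heart scores as covariates the value was 0.15, with a larger standard error of 0.23 (unadjusted p = 0.544 from limma).
Snhg5, which holds 2 near-identical copies of the U50 snoRNA, measured 72.1, 81.8 and 66.3 FPKM in the treated mice against 66.9, 76.4 and 83.4 FPKM in the control mice. The groups covered almost the same range. Its log2 fold change was -0.04 (unadjusted p = 0.738 from limma), with a 95% interval from 0.80-fold to 1.18-fold.
Snhg6, host of Snord87, measured 144, 181 and 136 FPKM in the treated mice against 145, 141 and 140 FPKM in the control mice. Its log2 fold change was 0.10 (unadjusted p = 0.408 from limma), with a 95% interval from 0.88-fold to 1.30-fold. Control libraries of Snhg6 lay within 5 FPKM of each other, and cytarabine 2 alone stood well above them.

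Snhg12 and Snhg1 varied more among the treated mice than among the controls. Snhg12 measured 47.8, 80.9 and 53.2 FPKM in the treated mice against 55.7, 54.5 and 55.0 FPKM in the control mice. The coefficient of variation was 29.3% with cytarabine and 1.07% in the controls, and the log2 fold change was 0.10 (unadjusted p = 0.630 from limma). Without cytarabine 2 it was -0.13, so that 1 library set its direction. Cytarabine 1 and 3 lay below all controls and cytarabine 2 above them.
Snhg1, which has more snoRNAs than any of the others but Gas5, measured 213, 395 and 295 FPKM in the treated mice against 210, 222 and 230 FPKM in the control mice. Cytarabine 2 and 3 lay above all controls and cytarabine 1 among them. The log2 fold change was 0.40 (standard error 0.22, unadjusted p = 0.117, adjusted p = 0.371 from limma). Without cytarabine 1 it was 0.63 (unadjusted p = 0.0061 from limma) and without cytarabine 2 it was 0.18. In the fit without cytarabine 1, 4111 of 11807 genes had an unadjusted p under 0.05. Within the little and much divisions of colon transcript the log2 fold change of Snhg1 was -0.09 and 0.70. With the colon and heart scores as covariates it was -0.11 (unadjusted p = 0.824 from limma), so its direction turned in that fit.
Cytarabine 2 was the highest of the 6 libraries for Snhg1, Snhg3, Snhg6, Snhg8 and Snhg12, 5 of the 7 hosts. It was also the library with the largest inferred depth, whose part in these levels was not tested. The hosts are measured in the same 6 libraries and are not independent of each other. Snhg1 made up between 31.6% and 42.6% of the summed FPKM of the 7 hosts.

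Malat1 measured 28.1, 29.6 and 43.0 FPKM in the treated mice against 30.7, 24.3 and 23.0 FPKM in the control mice, replicates 1 to 3 in order. Cytarabine 3 was the highest, and control 1 lay above cytarabine 1 and 2. The log2 fold change was 0.34 (standard error 0.19, unadjusted p = 0.125, adjusted p = 0.379 from limma), with a 95% interval from 0.91-fold to 1.76-fold. Within the little and much divisions it was 0.24 and 0.21. With the colon and heart scores as covariates it was 0.54 (unadjusted p = 0.0430 from limma), over 1.5 times the value without them. Without cytarabine 3 it was 0.16.
Neat1 measured 16.0, 83.2 and 127 FPKM in the treated mice against 50.6, 7.50 and 5.74 FPKM in the control mice. The groups overlapped, and the highest library held 22.2 times as much as the lowest, by far the widest spread of the 9. The log2 fold change was 1.99 (standard error 1.06, unadjusted p = 0.112, adjusted p = 0.365 from limma). Without cytarabine 1 it was 2.86 (unadjusted p = 0.0314 from limma), without control 1 it was 2.91 (unadjusted p = 0.0229), and without cytarabine 3 it was 1.40. Cytarabine 1 is the only treated library with little colon transcript, and control 1 the only control with much. Leaving out either brings the groups closer to the colon division, whose part was not tested. At an unadjusted p under 0.05, 4111 of 11807 genes were called without cytarabine 1 and 2132 of 11632 without control 1.
From the highest to the lowest, the order of the libraries for Neat1 was cytarabine 3, cytarabine 2, control 1, cytarabine 1, control 2 and control 3. The mean log2(FPKM + 1) of the colon markers put the libraries in the same order, at 7.31, 7.05, 5.99, 3.84, 1.20 and 1.17. That of the smooth muscle markers gave this order as well, at 7.41, 7.18, 6.95, 3.99, 3.93 and 1.86. The order is thus not particular to colon transcript, and the smooth muscle score was not among the covariates. Within the little and much divisions of colon transcript the difference in Neat1 was 1.17 and 1.01. With the colon and heart scores as covariates it was 0.48 (unadjusted p = 0.289 from limma). The Neat1 to Malat1 ratio followed the same division, at 2.81, 2.96 and 1.65 in cytarabine 2, cytarabine 3 and control 1, and at 0.568, 0.308 and 0.250 in cytarabine 1, control 2 and control 3.

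**Figure D3:**
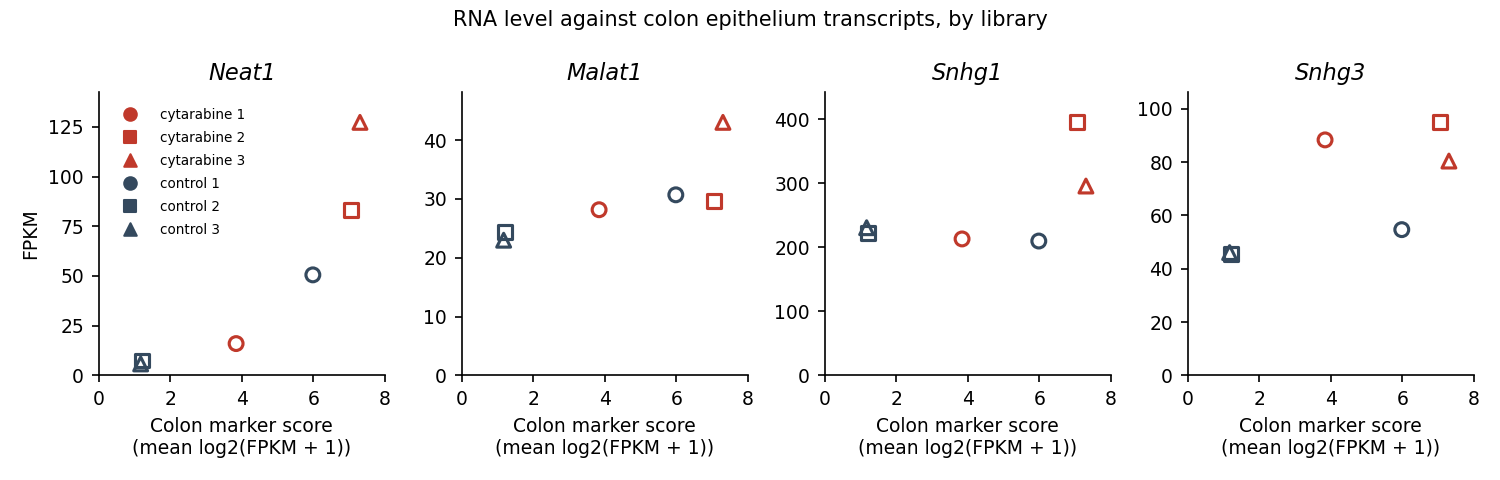
FPKM of Neat1, Malat1, Snhg1 and Snhg3 against the colon marker score of each library (mean log2(FPKM + 1) of 9 colon genes), with cytarabine in red and controls in dark blue. Neat1 has the same order as the colon score, while the 3 cytarabine libraries of Snhg3 lie above all controls at low and high scores.

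The snoRNAs themselves were hardly covered by the files. Of the snoRNAs inside the hosts 9 had a row, 5 of those were listed at 0 in all 6 libraries, and Snora24 of Snhg8 was listed above 0 only in control 1, at 0.044 FPKM. Snord22 of Snhg1 measured 780, 624 and 789 FPKM in the treated mice against 919, 516 and 804 FPKM in the control mice. These values did not follow those of Snhg1 (log2 fold change of Snord22 0.0039, unadjusted p = 0.987 from limma). Snora16a of Snhg12 measured 263, 56.9 and 161 FPKM in the treated mice against 90.7, 52.1 and 74.7 FPKM in the control mice, lowest among the treated mice in cytarabine 2, where Snhg12 itself was highest. Snora44 of Snhg12 was listed at 0 in control 2 and at 25.6 to 148 FPKM in the other libraries. These genes are shorter than the fragment length assumed for the library, and the values are therefore given without reading an amount of mature snoRNA from them. Of 124 snoRNA rows in the files 76 were at 0 in all libraries.

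Other hosts without a protein product were read from a list of 14, of which 5 had a row and 4 were tested. Of these Snhg4, host of the Snora74 family, was the only one called. It measured 30.8, 44.6 and 39.0 FPKM in the treated mice against 20.4, 18.2 and 19.5 FPKM in the control mice, without overlap. Its log2 fold change was 0.93 (standard error 0.14, unadjusted p = 6.47e-04, adjusted p = 0.131 from limma), a difference of the size seen for Snhg3. Over all genes tested 7.6% were called higher, and 1 of 4 is a small count beside that. Values under the alternatives were taken for the 9 RNAs only and not for Snhg4. The median log2 fold change was 0.43 over these 4 genes, 0.10 over the 7 hosts above and -0.002 over all genes tested.
The list of hosts that code for a protein holds mostly ribosomal proteins and translation factors. Of 30 tested, 0 were called higher and 8 lower at an unadjusted p under 0.05 from limma, with a median of -0.08. Rps2, a protein of the small ribosomal subunit, had a log2 fold change of -0.33 (unadjusted p = 0.0041), and Gnb2l1, which encodes the ribosome scaffold RACK1, had -0.25 (unadjusted p = 0.0075).
Among 15 genes for the proteins that assemble on snoRNAs, 0 were called higher and 3 lower, with a median of -0.24. Fbl, the methyltransferase of C/D snoRNAs, measured 267, 207 and 188 FPKM in the treated mice against 277, 311 and 330 FPKM in the control mice (log2 fold change -0.48, unadjusted p = 0.0169 from limma). Ruvbl2, an ATPase used in snoRNP assembly, had a log2 fold change of -0.33 (unadjusted p = 0.0068). Nop56 and Dkc1 stand on both the list of protein-coding hosts and that of snoRNP proteins.

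**Figure D4:**
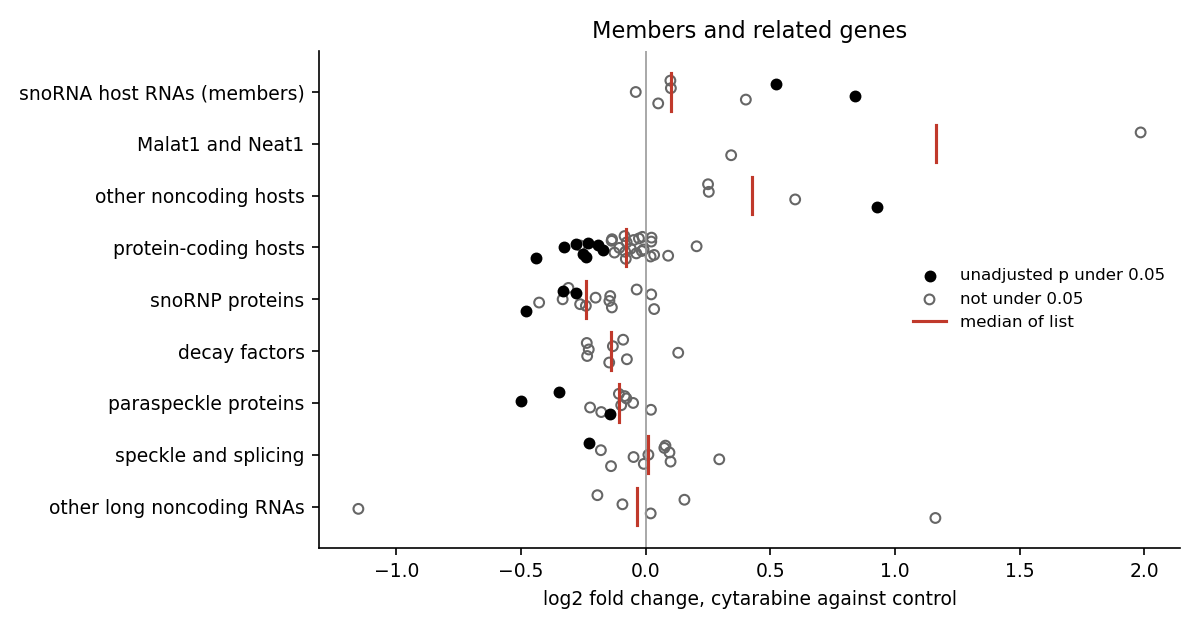
Log2 fold change of the 9 RNAs and of the tested genes in 7 related lists, where filled points have an unadjusted p under 0.05 from limma and red bars are list medians. Filled points lie above 0 for Snhg3, Snhg8 and Snhg4, and below 0 for 8 protein-coding hosts, 3 snoRNP genes, 3 paraspeckle genes and 1 speckle gene.

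Of 8 nonsense-mediated decay factors tested, 0 were called in either direction, with a median log2 fold change of -0.14 (range -0.24 to 0.13). Of 11 paraspeckle proteins, 3 were called lower and 0 higher, with a median of -0.11. Nono, which binds Neat1, had a log2 fold change of -0.14 (unadjusted p = 0.0389 from limma), and Smarca4, a chromatin remodeller found in paraspeckles, had -0.35 (unadjusted p = 0.0214). Of 11 speckle and splicing proteins, 1 was called, Acin1 with a log2 fold change of -0.23 (unadjusted p = 0.0431). Of 14 other long noncoding RNAs, 6 were tested and 0 were called. Against the background of 9.81% of genes called lower, 8 of 30, 3 of 15, 3 of 11 and 1 of 11 are small counts over genes that share libraries.

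As a description of likeness, the 3 genes at a mean of at least 10 FPKM whose log2(FPKM + 1) correlated best with Gas5 over the 6 libraries were Snx18, 2810432D09Rik and Cst7. For Malat1 they were Ppfibp1, Spag9 and Mios. Pearson's r was 0.998, 0.994 and 0.991 for Gas5, and 0.999, 0.986 and 0.98 for Malat1. The points share their libraries and their depth, and nothing is drawn from the likeness.

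**Figure D5:**
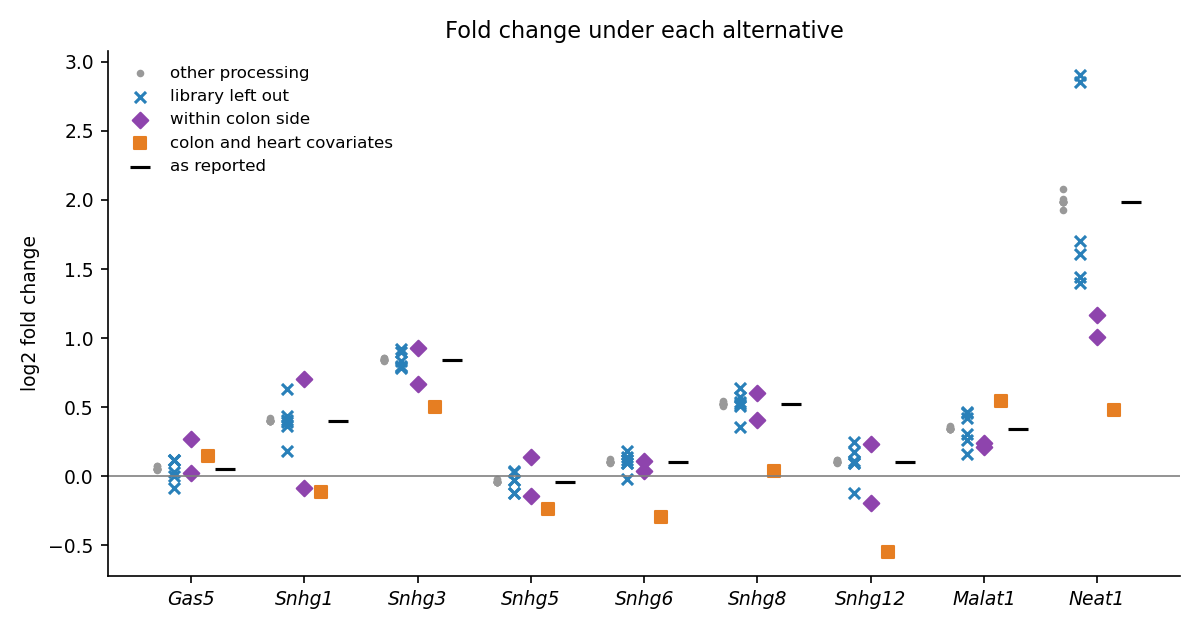
Log2 fold change of each RNA as reported (black bar) and under each alternative, where crosses leave out a library, diamonds are values within the libraries with little or much colon transcript, and squares are the fit with colon and heart scores. Snhg3 stays between 0.50 and 0.93, Snhg8 ranges down to 0.036, and Neat1 ranges from 0.48 to 2.91.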

How the data were processed

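RNA-Seq of sorted AML cells from 3 cytarabine-treated and 3 control mice was analysed. Single-end reads of 75 bases were mapped by the authors to mm10. Their processing notes name TopHat2 2.0.13, SAMtools 0.1.19 and Bowtie2 2.2.3, and the deposited FPKM came from Cufflinks 2.2.1. Annotation and options are not given in the sources used here, nor whether strand was used. FPKM are not counts, so no count test was run. Groups and replicate numbers came from the source names. Separate mice were used, and same-numbered libraries did not deviate together.

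From the deposited FPKM, log2(FPKM + 1) was compared by limma 3.58.1 under R 4.3.3, using lmFit and a trended eBayes, for genes averaging 1 FPKM or more. Tests were two-sided and p-values were adjusted after Benjamini and Hochberg. The fit was tested on simulated data. Depth was inferred with a fragment length of 200 bases assumed. Figures were drawn with matplotlib 3.10.9. The members and lists were chosen with earlier results of these data known, and the exceptions below after values were seen. The genes named are the 9 members, up to 2 genes in each direction of each related list with the smallest unadjusted p under 0.05, and the 3 genes most like Gas5 and Malat1. Rcc1, the snoRNAs inside hosts, Ptprc, Itga2, Nppb, Hba-a1, Mpo, Cd3e, Kit, Cd34, Cebpa, Itgam and Csf3r were also named.

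Alternatives were another pseudocount, other filters, other scalings, other eBayes settings, the replicate block, tissue scores as covariates, values within the colon division and leaving out each library.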

Additional observations from a re-analysis of the deposited data

How the results depend on the processing

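Snhg3 kept its direction and an unadjusted p under 0.05 in all 17 alternative fits, and its log2 fold change ranged from 0.78 to 0.92 when 1 library was left out. Its adjusted p ranged from 0.0526 to 0.998. Other filters, other eBayes settings and the replicate block cannot change a gene's log2 fold change, so its direction was fixed in those fits. Snhg8 kept its call in 16 of the 17. Malat1 passed an unadjusted p of 0.05 only with the covariates. With the replicate block 2 of the 9 RNAs were called, as without it, beside 994 of the 11703 genes tested. Snhg3 had an unadjusted p of 0.0018 from limma in that fit. Deviations of same-numbered libraries correlated at -0.709, -0.247 and -0.594. Directions turned in some alternatives. With colon and heart scores as covariates, Snhg1 had -0.11, Snhg6 -0.30 and Snhg12 -0.55. Their standard errors in that fit were 0.48, 0.20 and 0.36 (unadjusted p = 0.824, 0.192 and 0.193 from limma), so none was called there. Within the libraries with little colon transcript, Snhg1 had -0.088 and Snhg12 -0.19, and within those with much of it Snhg5 had 0.14. Leaving out 1 library gave from -0.084 to 0.12 for Gas5, from -0.12 to 0.033 for Snhg5, from -0.022 to 0.18 for Snhg6 and from -0.13 to 0.25 for Snhg12. The cause was not tested.

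Genes with an adjusted p under 0.05 numbered 0 (2038 had an unadjusted p under 0.05 from limma), and 1 with a pseudocount of 0.1, 1 without microRNA and small nucleolar RNA, 2 without the trend, 1 with the robust trend, and from 0 to 6 with 1 library left out. The 2038 became 994 with the replicate block and 528 with the covariates, which have fewer degrees of freedom, and from 1176 (without control 3) to 4111 (without cytarabine 1) with 1 library left out. Genes whose groups do not overlap numbered from 3374 to 6586 with 1 library left out. Smaller groups separate more easily, so these counts cannot be set against the 2781 of the full comparison. Called members numbered from 2 to 4 of the 9 in those fits. The 4 were without cytarabine 1, where 4111 of 11807 genes were called. Snhg8 rests on the fewest reads by the depth estimate.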
